A study of Mus musculus with 6 samples.

Results

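Long intergenic noncoding RNAs (lincRNAs) are transcripts from between the protein-coding genes, made and often spliced like messenger RNAs but without a known protein product. Some act as scaffolds in the nucleus, as Neat1 does for the paraspeckle and Malat1 at nuclear speckles, some bind proteins or microRNAs in the cytoplasm, and some lie beside a coding gene whose transcription they accompany, as Pvt1 does beside the oncogene Myc. In melanoma and other tumors they are known mostly from a few abundant examples, while most carry only a clone or predicted-gene name. The genes described here were 160 of the 40166 genes in the deposited table. They were chosen by their annotated type, lincRNA, and selected on their measured level, a median of at least 30 raw counts over the 6 tumors, leaving out genes named Snhg or Gas5. Of 3913 lincRNA genes in the table, 2580 had no count in any tumor, 4 reached the minimum but were left out by name, and 3749 stayed below it (the genes without a count included). The level chose the members over both groups together, so the levels below are a description.

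RNA was sequenced from 6 YUMM3.3 tumors, all collected at 17 days of treatment. YUMM3.3 is a mouse melanoma cell line with mutant Braf, injected under the skin of the lower back of C57BL/6 mice. The 3 RGS tumors (replicates 10, 11 and 12) came from mice given Rigosertib (RGS), a compound that interferes with the binding of RAS to its effectors, at 300 mg/kg by oral gavage 5 days a week, and the 3 vehicle tumors (replicates 7, 8 and 9) from mice given water the same way. The comparison of RGS with vehicle asks which genes the treatment changed in the tumor. The line is a single cultured line, and the labels give neither the age or sex of the mice nor whether each tumor came from its own mouse, so p-values measure the spread between these 6 samples.

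The counts per tumor summed to between 13837932 and 32555494, and each vehicle library was deeper than each RGS library. A count of 3 corresponded to between 0.0856 and 0.226 CPM (edgeR's counts-per-million value, on libraries scaled by TMM factors). Pairs of tumors within a group differed over the members by 12.8 to 33.4 times what counting noise gives, measured as chi-square over its degrees of freedom, and each is treated as a replicate of its own. Against the label of a melanoma tumor, 6 of 10 melanocyte markers had at most 3 counts in every tumor, with Dct, Tyr, Mlana, Kit and Slc45a2 at 0, while Mitf was present. Of 12 macrophage and monocyte markers, 7 were at or under that floor, with Adgre1 at 0 in every tumor and Lyz2 at 0 to 2 counts, and the summed level, nearly all Cd68 and Cd14, was 66.5 to 76.4 CPM on library totals with vehicle and 81.1 to 98.0 with RGS. Fibroblast and pericyte markers summed to 501 to 737 CPM with vehicle and 652 to 711 with RGS (8 of 9 tested, 2 higher and 5 lower), where Rgs5 went from 1.30 to 401 CPM while Col1a2, Col3a1, Pdgfra, Pdgfrb and Acta2 fell, Acta2 from 88.2 to 18.2 CPM. Endothelial markers summed to 2.54 to 4.35 CPM with vehicle and 6.07 to 12.8 with RGS. Of these only Cdh5 passed the threshold, with 7 to 24 counts in vehicle and 36 to 167 in RGS tumors. Pecam1, Vwf and Tek did not pass, Tek with a log2 fold change of -1.88. Kdr, Emcn and Cldn5 had at most 6 counts in any tumor. Keratinocyte markers, nearly all Ivl and Krt10, summed to 0.430 to 1.75 and 6.57 to 19.3 CPM. Dendritic cell markers summed to 6.33 to 8.69 and 7.88 to 13.1 CPM, and their main genes went opposite ways. Flt3 had 0 to 21 counts in vehicle and 87 to 176 in RGS tumors. Zbtb46 had 175 to 217 counts in vehicle and 16 to 105 in RGS tumors (log2 fold change -1.12, not past the threshold). Xcr1, Clec9a, Itgax and Ccr7 had at most 8 counts in any tumor. T and NK cell markers summed to 0.0307 to 0.614 and 0.563 to 1.39 CPM, with Trac at 0 counts in vehicle and 10 to 30 in RGS tumors. No other marker of that list had a count in an RGS tumor. Cd3d, Cd3e, Cd3g, Cd8a, Cd8b1, Klrb1c and Gzmb were at 0 in every tumor. Cd4 had 14 counts in vehicle 9 alone, and Ncr1 and Prf1 had at most 2, in vehicle tumors. Reads of mitochondrial genes made up 2.52% ± 0.589 of a vehicle library and 7.02% ± 1.33 of an RGS library, those of ribosomal protein genes 8.09% ± 2.29 and 3.37% ± 0.272 (SD, n = 3). The part of these differences in the lincRNA values below was not tested. In bulk RNA, fewer cells of a type and less RNA per cell cannot be told apart.

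The 160 lincRNAs were spread over 20 chromosomes, with 15 on chromosome 5, 14 on chromosome 13 and 13 on chromosome 17. Their annotated exon length ran from 168 bases (Bc1) to 20771 bases (Neat1), with a median of 2452, against 4557 for the 11049 protein-coding genes that reached the same median count. The median GC content of the exons was 47.1%, against 50.7% for those coding genes. A single exon made up 22 of them, and 131 had only a predicted-gene, clone or Rik name. Both Malat1 and Neat1, neighbours on chromosome 19, belong to the single-exon genes. The span of 82 members overlapped another annotated gene and that of 78 overlapped none. The strand setting of the counting is not stated, so for the 55 members whose exons share bases with an exon of another gene the reads of both cannot be told apart. A member within another gene on the same strand, such as Gdap10 within Nampt, could also take up reads of that gene's unspliced RNA.

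Levels between genes are compared here per length, as RPKM (CPM per kilobase of exon), averaged over both groups. They ran from 0.208 RPKM (Lncpint) to 81.8 RPKM (Bc1) with a median of 1.54, and 48 members were under 1 RPKM while 17 reached 10 RPKM. The 6 highest were Bc1 at 81.8 RPKM, Malat1 at 70.1, Gm42047 at 69.7, Gm10076 at 63.3, 3300005D01Rik at 49.6 and 2900097C17Rik at 41.3. Bc1, the shortest member, stood at 155 RPKM with vehicle and 8.66 with RGS. Malat1, Gm42047 and Gm10076 followed closely, and their order changed between the groups. With vehicle Gm42047 stood at 106 RPKM above Gm10076 at 87.1 and Malat1 at 60.9, and with RGS Malat1 stood first at 79.4 RPKM, Gm10076 at 39.4 and Gm42047 at 33.9. All 160 members were detected in each vehicle tumor, and 159, 159 and 156 in RGS tumors 10, 11 and 12.

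Across the members, 15 rose and 23 fell with RGS and 122 did not pass the threshold, an adjusted p under 0.05 (edgeR's quasi-likelihood test, p-values adjusted by Benjamini-Hochberg across the 15355 genes tested). All 160 entered that test. Calls in either direction made up 32.8% of all genes tested, 16.3% higher and 16.5% lower, against 9.38% higher and 14.4% lower among the lincRNAs. All genes tested include many with fewer counts than the members. Of the 11049 protein-coding genes with a median of at least 30 counts, 19.9% were higher and 20.3% lower. An unadjusted p under 0.05 was found for 51 members. The median count of 1 group alone was under 30 for 51 members, 44 of them in RGS tumors (0 higher and 10 lower by edgeR) and 7 in vehicle tumors (3 higher and 0 lower), and these reached the minimum through the group where they are high, so their calls are not independent of the rule. The other 109, with both group medians at 30 or more, counted 12 higher and 13 lower. The values of the groups did not overlap for 65 members (40.6%, against 45.8% of all genes), among them 35 of the 38 that passed the threshold. A change of at least 2-fold was reached by 12 of the members that rose and 18 of those that fell, at least 4-fold by 5 and 10. Those of at least 4-fold were mostly among the 51 above. The exceptions were Gm44275, which fell, and Gm14221 and D5Ertd615e, which rose. The fitted log2 fold changes ran from -4.65 (Gm32856) to 2.92 (Gm14221), with 93 negative and 67 positive.

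The median log2 fold change of the members was -0.25, against -0.048 for all genes tested, and it became 0.010 with an offset for GC content and -0.0044 with one for gene length, which moved the median of all genes to 0.051 and 0.055. The split of calls moved as well, from 15 higher and 23 lower to 23 and 14 with the GC offset, 19 and 17 with the length offset, and 11 and 28 when counts were scaled by library totals alone, which shifted the median of all genes to -0.19. Single tumors mattered too. The higher calls numbered 9 without RGS 10, without RGS 12 or without vehicle 8, and the lower calls numbered 14 without vehicle 8 and 15 without vehicle 9, while the median was -0.066 without vehicle 9. Across the 160 genes, which are not independent replicates, the log2 fold change had a Spearman's rho of -0.051 with log length and 0.057 with GC content. No direction for the lincRNAs as a whole is therefore given, and the results below are those of single genes.

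**Figure D1:**
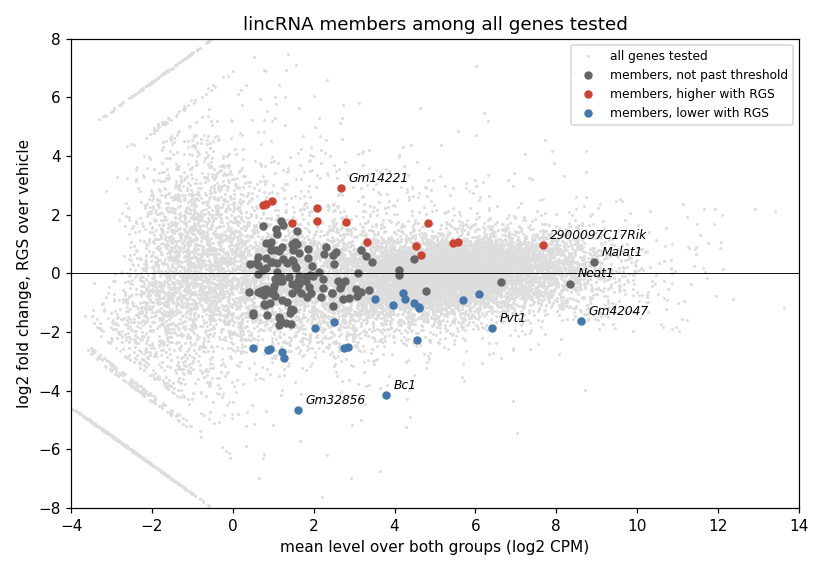
Each point is a gene, placed by its mean level over both groups (log2 CPM, x axis) and its log2 fold change of RGS over vehicle (y axis), with all 15355 genes tested in light grey and the 160 lincRNAs in dark grey, red (15 higher) or blue (23 lower). Genes beyond the axis limits are not drawn, and the lincRNAs that passed the threshold lie along the whole range of levels, from Gm42047 at the right to genes of about 1 CPM at the left.

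How often a member passed followed its count. Of all genes tested, 16.3% rose and 16.5% fell in edgeR's test. Of the protein-coding genes with a median of at least 30 counts, 19.9% rose and 20.3% fell. No share of all genes in the same class of count or length is given, so whether a class below is unusual was not tested. Of the 24 lincRNAs with a median of at least 300 counts, 6 rose, 11 fell and 7 did not pass. Of the 34 between 100 and 300 counts, 3 rose and 6 fell, and of the 102 under 100 counts, 6 rose and 6 fell. The median standard error of the log2 fold change was 0.76 in the lowest class and 0.23 in the highest, so a 2-fold change lies within 2 standard errors for a typical member under 100 counts and may go undetected at this depth. By length, 2 of 23 lincRNAs under 1000 bases rose and 6 fell, 7 of 74 between 1000 and 3000 bases rose and 5 fell, and 6 of 63 of 3000 bases or more rose and 12 fell. Among the 78 members that overlap no other gene, 8 rose and 14 fell. Of the 361 other lincRNA genes that entered the test, all with lower counts or left out by name, 24 were higher and 21 lower.

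Malat1 (chr19:5795690-5802672, minus strand, GRCm38), which gathers at nuclear speckles beside the splicing factors, stood at 374, 406 and 495 CPM in the vehicle tumors and 523, 529.7 and 610.4 CPM in the RGS tumors. Each RGS tumor was above each vehicle tumor, by a small margin between vehicle 9 and RGS 10. This log2 fold change of 0.38 ± 0.16 (SE) did not pass (edgeR, adjusted p = 0.0657), but it passed in 5 of 19 alternatives, reaching 0.90 with the GC offset and 0.51 without vehicle 9. Neat1 (chr19:5824708-5845478, minus strand), the RNA on which paraspeckles are built, showed 353, 366 and 372 CPM with vehicle and 265, 313 and 278 CPM with RGS. Here each RGS tumor was below each vehicle tumor. Its log2 fold change of -0.35 ± 0.15 did not pass either (adjusted p = 0.0743), and it did in 6 alternatives, among them the fit without vehicle 7, at -0.37.

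The proteins that build paraspeckles on Neat1 were examined as a list. Of 21 such genes tested, 4 rose and 4 fell, against 16.3% and 16.5% of all genes. Matr3, a nuclear matrix protein, fell with a log2 fold change of -0.89, Pspc1, a core paraspeckle protein, with -1.15, and Tardbp, an RNA-binding protein, with -0.58. Hnrnpm, a splicing regulator, rose with a log2 fold change of 0.79 and the chromatin remodeler Smarca4 with 0.80. Sfpq, another core paraspeckle protein, had 211 ± 32.3 CPM in vehicle tumors and 235 ± 9.34 in RGS tumors (SD, n = 3) and did not pass the threshold.

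The mouse counterpart of NORAD, 2900097C17Rik (ENSMUSG00000102869.2, chr2:156388065-156392979, minus strand), rose. NORAD is an abundant cytoplasmic lincRNA known for a role in keeping chromosomes stable. Its level was 159, 118 and 134 CPM in the vehicle tumors and 270.5, 263 and 275 CPM in the RGS tumors. The RGS tumors lay close together, far above all vehicle tumors. It had a log2 fold change of 0.98 ± 0.16 (edgeR, adjusted p = 9.73e-05), with a range of 0.74 to 1.13 over the 19 alternatives, all past the threshold.

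The other nuclear and repeat-related members did not pass. Gm26917 (chr17:39843013-39846341, plus strand), a single-exon gene of 70.7% GC that lies over ribosomal RNA-like sequence, had 58.5, 102 and 164 CPM with vehicle and 76.7, 126 and 64.5 CPM with RGS. Its groups overlapped and the vehicle tumors alone differed by more than the groups did. Its log2 fold change was -0.28 ± 0.28 (adjusted p = 0.485). It turned to 0.15 without vehicle 9 and passed the threshold with the GC offset, at -0.77, and without vehicle 7, at -0.59. Of the 10 nuclear architecture genes tested, 4 are members, and the list counted 2 higher and 2 lower, against 16.3% and 16.5% of all genes. Those lower were 2 genes outside the member list, Firre, an X-linked nuclear RNA, at a log2 fold change of -1.48, and Miat, which had 23 to 29 counts in each vehicle tumor and 0 in each RGS tumor. Kcnq1ot1, an imprinted antisense RNA, rose beside 2900097C17Rik.

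Gm42047 was the member with the largest loss of reads. This gene of 4 exons (ENSMUSG00000110631.1, chr8:121833247-121841178, plus strand) has no known function. It stood at 591, 596 and 599.8 CPM in the vehicle tumors and 200.8, 202 and 171 CPM in the RGS tumors. The vehicle tumors were nearly equal, and their mean was 3.12 times that of the RGS tumors. Its log2 fold change was -1.64 ± 0.15 (edgeR, adjusted p = 1.55e-07) and lay between -1.78 and -1.59 in all alternatives. Its nearest coding gene among those in the counts was Klhdc4, 3678 bases away on the opposite strand. Klhdc4 rose from 34.8 ± 3.01 to 58.5 ± 3.01 CPM (log2 fold change 0.75, edgeR, adjusted p = 0.00285). The span of Gm42047 also overlaps Gm20388, an annotated coding gene on the same strand that is absent from the counts.

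**Figure D2:**
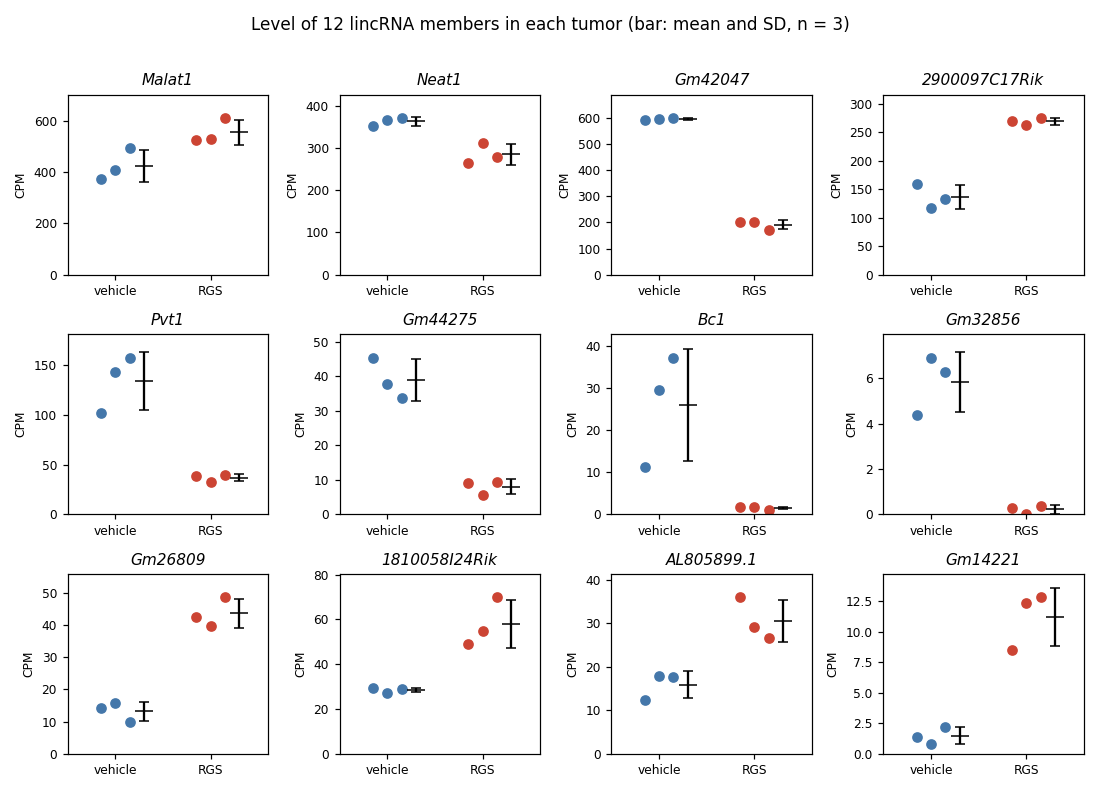
CPM (y axis, from 0) of 12 lincRNAs in each vehicle tumor (blue) and RGS tumor (red), with the mean and SD of the 3 tumors as a bar beside them. In each of the 12 panels the groups do not overlap, with Gm42047 between 591 and 599.8 CPM in vehicle and between 171 and 202 CPM in RGS tumors, although Malat1 and Neat1 did not pass the threshold across all genes.

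Among the members known from growth control and the p53 response, Pvt1 and Epb41l4aos fell. Pvt1 (ENSMUSG00000097039.8, chr15:62037986-62378096, plus strand), a lincRNA downstream of Myc that is often amplified with it in tumors, had 102, 144 and 158 CPM with vehicle and 38.3, 32.7 and 39.5 CPM with RGS. The lowest vehicle tumor was far above the highest RGS tumor. Its log2 fold change was -1.87 ± 0.19 (edgeR, adjusted p = 5.07e-07) and held in all 19 alternatives. Myc, 47612 bases upstream on the same strand, fell too, from 322 ± 19.9 to 145 ± 15.3 CPM (SD, n = 3), with a log2 fold change of -1.15 (adjusted p = 1.27e-05).

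Epb41l4aos, a short spliced RNA of 430 bases that holds a snoRNA gene in an intron and starts opposite to Epb41l4a, had 7.65, 11.9 and 17.1 CPM with vehicle and 1.28, 0.904 and 4.16 CPM with RGS. Its groups did not overlap, and RGS 12 stood above the other RGS tumors. It had a log2 fold change of -2.53 ± 0.51 (edgeR, adjusted p = 8.49e-04). Its median count in RGS tumors was under 30, so it reached the minimum through the vehicle tumors and its call is not independent of the rule. Epb41l4a itself, 341 bases away, kept 35.5 ± 6.38 CPM with vehicle and 31.6 ± 3.85 with RGS and did not pass the threshold.

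The p53-related lincRNAs of low count did not pass. Trp53cor1, known as lincRNA-p21 and placed beside the p53 target Cdkn1a, had 3.45, 3.42 and 3.74 CPM with vehicle and 2.697, 0.979 and 3.67 CPM with RGS, a log2 fold change of -0.52 ± 0.60. RGS 10 and RGS 11 lay below the vehicle tumors, but RGS 12 stood within their range. Cdkn1a had 268 ± 13.3 and 291 ± 16.9 CPM and did not pass. Lncpint, a p53-induced RNA, had a log2 fold change of 0.29 ± 0.87, and Lncenc1, an RNA of embryonic stem cells, one of 0.46 ± 0.62. Both turned negative without RGS 12, to -0.40 and -0.042. Of the 10 genes of this list that were tested, 6 of them members, 0 rose and 2 fell in edgeR's test, the pair described above. Of all genes tested, 16.3% rose and 16.5% fell. At an unadjusted p under 0.05 the list counted 0 higher and 3 lower, and the same counts adjusted by DESeq2 and by voom.

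Bc1 showed one of the steepest falls, and its median in RGS tumors was under 30 counts, as were those of Epb41l4aos and AC129328.1. Bc1 is a small cytoplasmic RNA made by RNA polymerase III, known from neurons and germ cells, where it represses translation. It had 11.3, 29.5 and 37.3 CPM in the vehicle tumors and 1.61, 1.66 and 1.10 CPM in the RGS tumors. Vehicle 7 was lower than the other vehicle tumors, yet well above every RGS tumor. This gave a log2 fold change of -4.15 ± 0.42 (edgeR, adjusted p = 5.07e-07), which lay between -4.52 and -3.24 over the alternatives. Oraov1, 463 bases away on the same strand, rose from 14.8 ± 0.599 to 25.4 ± 4.99 CPM (log2 fold change 0.78, adjusted p = 0.0153).

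The 168-base Bc1 transcript is printed because its own letters hold the promoter that polymerase III uses. It lies on chr7:144914470-144914637 of GRCm38, plus strand, and is given 5′ to 3′ from GENCODE M21. The capitals mark, in this order, a match to the A box and the core letters GGTTCG of the B box, the internal promoter elements of tRNA-like genes. The stretch of A that follows separates the tRNA-like part from the end of the RNA. Copies of the first part, the ID elements, are scattered through rodent genomes, and how reads that fit several places were treated is not stated, so these counts may include reads of such copies. With reads of 150 bases, a single read covers most of this RNA.
Bc1: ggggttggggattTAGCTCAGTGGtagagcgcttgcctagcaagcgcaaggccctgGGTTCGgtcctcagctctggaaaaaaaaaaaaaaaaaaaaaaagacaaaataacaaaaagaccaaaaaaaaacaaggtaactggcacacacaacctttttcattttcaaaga

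Gm32856 had the most negative fitted fold change of all members, and it met the member rule through its vehicle counts alone. It is a gene of 6 exons without known function (ENSMUSG00000110605.1, chr8:129263641-129282844, plus strand). It had 4.36, 6.91 and 6.27 CPM with vehicle, from 146 to 194 counts, and 0.284, 0 and 0.367 CPM with RGS, from 0 to 6 counts. The RGS tumors were thus near the limit of detection. In the fit its log2 fold change was -4.65 ± 0.79 (edgeR, adjusted p = 1.66e-04), between -5.51 and -4.17 over the alternatives. Its nearest coding gene, 2610044O15Rik8, lies 29235 bases away and did not pass the threshold.

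Gm44275 (chr6:135312155-135319561, minus strand) fell from a higher level, with 45.4, 37.6 and 33.6 CPM in the vehicle tumors and 8.94, 5.50 and 9.48 CPM in the RGS tumors. The groups were well apart, with a log2 fold change of -2.28 ± 0.25 (edgeR, adjusted p = 1.85e-06). AC129328.1 fell from 6.33, 12.7 and 15.3 CPM to 3.55, 1.73 and 0.489 CPM, a log2 fold change of -2.55 ± 0.54 (adjusted p = 0.00137). Its groups did not overlap, with vehicle 7 and RGS 10 nearest each other. AC129328.1 reached the minimum through the vehicle tumors, so its call is not independent of the rule. Both genes kept their calls in all 19 alternatives.

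The other large decreases were of genes with few reads, each with fewer than 30 counts in every RGS tumor, so that they too entered the member list through the vehicle tumors. Gm29630 had 3.88, 3.85 and 4.94 CPM with vehicle and 0, 0.452 and 1.28 CPM with RGS (log2 fold change -2.88 ± 0.92). Gdap10, a gene that lies within Nampt, had 4.11, 4.10 and 3.74 CPM against 0.331, 1.58 and 0 CPM (-2.68 ± 0.94). For 2310001H17Rik, AC133498.1 and Gm36033, the log2 fold changes were -2.61, -2.57 and -2.54. In each of these genes the groups did not overlap, but the calls were near the threshold, with edgeR's adjusted p between 0.0223 and 0.0499. Gm29630 lost its call with the length offset, and the other 4 genes lost theirs with the GC offset, 2310001H17Rik also when thinned to the smallest library and Gm36033 also with RLE scaling, the length offset, no filter, or mitochondrial and rRNA-repeat genes left out. Gdap10 lost its call without RGS 10, vehicle 7 or vehicle 8, AC133498.1 without RGS 10, RGS 12, vehicle 8 or vehicle 9, and both 2310001H17Rik and Gm36033 without any 1 tumor other than RGS 10, with fold changes from -4.88 to -2.01 over the alternatives of these genes.

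Several lincRNAs with more reads fell by smaller amounts. The counterpart of human OIP5-AS1 (Cyrano), 1700020I14Rik, which is known for a site that binds the microRNA miR-7, had 57.8, 67.2 and 77.9 CPM with vehicle and 39.5, 44.3 and 25.3 CPM with RGS. The groups did not overlap. Its log2 fold change was -0.90 ± 0.21 (edgeR, adjusted p = 0.00284) and fell short of the threshold with the GC offset, at -0.39. C230024C17Rik, beside the signalling regulator gene Rgs16, had 8.22, 8.26 and 9.50 CPM against 1.66, 3.92 and 2.63 CPM (log2 fold change -1.67 ± 0.43, adjusted p = 0.00578). Gm10076 and 3300005D01Rik, both among the 6 highest by RPKM, fell with log2 fold changes of -1.14 and -0.72, and their groups overlapped. Vehicle 7 held the lowest vehicle value of both, 17.9 and 49.6 CPM, within the RGS range of 11.9 to 19.8 and 45.8 to 58.6 CPM, and without vehicle 9 the log2 fold changes were -0.77 and -0.47, no longer past the threshold. Both calls were also lost with the length offset, at -0.38 and -0.43. The call of 3300005D01Rik was also lost without vehicle 8, RGS 10 or RGS 11.

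Among the members that rose, Gm14221 changed the most. This gene of 4 exons (ENSMUSG00000078956.3, chr2:160568379-160619971, minus strand) had 1.40, 0.819 and 2.23 CPM in the vehicle tumors and 8.52, 12.3 and 12.8 CPM in the RGS tumors. The lowest RGS tumor was well above the highest vehicle tumor. It had a log2 fold change of 2.92 ± 0.45 (edgeR, adjusted p = 6.32e-05). Top1, the gene of DNA topoisomerase I 25917 bases away on the opposite strand, rose from 103 ± 14.4 to 236 ± 26.7 CPM (log2 fold change 1.20).

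Gm26809 (chr6:18844220-18847360, plus strand) rose from 14.2, 15.7 and 9.93 CPM to 42.6, 39.6 and 48.6 CPM, a log2 fold change of 1.72 ± 0.22 (edgeR, adjusted p = 1.11e-05). Its groups were far apart. Its nearest coding gene, Lsm8, a component of the spliceosome, lies 1219 bases away and did not pass. Gm28875 had 39.7, 23.1 and 29.6 CPM with vehicle and 64.2, 70.1 and 59.7 CPM with RGS (log2 fold change 1.07 ± 0.20, adjusted p = 4.96e-04). D5Ertd615e, a gene of 11 exons, had 1.80, 0.534 and 2.11 CPM against 4.64, 6.02 and 10.4 CPM (log2 fold change 2.24 ± 0.58, adjusted p = 0.00568). These 3 genes and Gm14221 passed in all 19 alternatives.

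1810058I24Rik carries the type lincRNA in the table, although a small mitochondrial protein has since been described from it. It had 29.3, 27.4 and 28.8 CPM with vehicle and 49.0, 55.0 and 70.0 CPM with RGS. The vehicle tumors were nearly equal and all below the RGS tumors. It rose with a log2 fold change of 1.02 ± 0.19 (edgeR, adjusted p = 3.81e-04). Zfp469, which bears the name of a zinc finger protein gene but the type lincRNA, rose from 4.42, 2.32 and 2.84 CPM to 14.5, 10.8 and 6.91 CPM (log2 fold change 1.75 ± 0.41, adjusted p = 0.00289). Both kept their calls in all alternatives.

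The remaining large increases were of genes under 10 CPM, of which Gm29340, 4732496C06Rik and Platr26 reached the minimum through the RGS tumors. Gm17586, 168 bases from the transcription factor gene Mafg on the opposite strand, had 3.02, 1.64 and 1.07 CPM with vehicle and 8.38, 3.39 and 8.01 CPM with RGS (log2 fold change 1.78 ± 0.55). RGS 11 lay near vehicle 7, and the call was lost without RGS 10, RGS 12 or vehicle 8 (log2 fold changes of 1.58, 1.61 and 1.71). Gm29340, 4732496C06Rik and Platr26 had log2 fold changes of 2.47, 2.36 and 2.34, from vehicle means of 0.599, 0.572 and 0.547 CPM to RGS means of 3.34, 2.93 and 2.82 CPM. Their groups did not overlap, but their calls depended on single tumors. Gm29340 fell short without RGS 11, vehicle 7 or vehicle 9 (2.29, 2.15 and 2.20), 4732496C06Rik without any 1 tumor except vehicle 9 (2.02 to 2.56) and Platr26 without any 1 of the 6 (2.02 to 2.62).

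Several members are the primary transcripts of microRNAs, the short RNAs that repress messenger RNAs through a seed at bases 2 to 8. RefSeq microRNA genes overlap 9 members (Mir24-2 only at the edge of Gm26532). Of these, 1 rose and 0 fell in edgeR's test, against 16.3% and 16.5% of all genes. There was 1 lower at an unadjusted p under 0.05, 0 lower by DESeq2 and 1 by voom. The one that rose, AL805899.1 (ENSMUSG00000117123.1, chr4:88909855-88938521, minus strand), holds Mir31. It had 12.4, 17.8 and 17.5 CPM with vehicle and 35.96, 29.1 and 26.6 CPM with RGS. All RGS tumors were above all vehicle tumors. Its log2 fold change was 0.94 ± 0.23 (adjusted p = 0.00419), between 0.79 and 1.31 over the alternatives, all past the threshold.

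Mir17hg (chr14:115042879-115046727, plus strand), the host of the miR-17-92 cluster that Myc is known to induce, had 5.59, 7.23 and 9.32 CPM with vehicle and 3.26, 8.36 and 4.10 CPM with RGS. RGS 11 stood within the vehicle range, the others below it. A log2 fold change of -0.50 ± 0.42 did not pass (edgeR, adjusted p = 0.396) and became 0.053 with the GC offset. Mir155hg, the host of the immune microRNA miR-155, had 2.17, 2.74 and 3.27 CPM against 2.32, 3.54 and 3.55 CPM (log2 fold change 0.20 ± 0.57), with overlapping groups. Ftx, a long RNA of the X inactivation centre that holds Mir374b and Mir421, had 3.77, 6.27 and 10.1 CPM against 4.495, 5.04 and 3.12 CPM (-0.67 ± 0.45). C130071C03Rik, which holds Mir9-2, had 6.05, 6.91 and 12.6 CPM against 4.54, 3.54 and 5.69 CPM (-0.89 ± 0.40, adjusted p = 0.10) and did not pass although its groups did not overlap. The other 4 hosts, with Mir24-2, Mirlet7d, Mir191 with Mir425, and Mir1839, had log2 fold changes of 0.77, -0.77, -1.36 and -1.70 and did not pass.

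The mature microRNAs of 2 hosts are shown because the counts above are of the host RNA and say nothing of the level of these products. The sequences are from RefSeq (GRCm38.p6), 5′ to 3′, with the seed in capitals. miR-31-5p and miR-31-3p come from opposite arms of the hairpin in AL805899.1. In the cluster of Mir17hg, miR-17-5p and miR-20a-5p share 1 seed, miR-19a-3p and miR-19b-3p share another, and miR-18a-5p and miR-92a-3p each have a seed of their own.
miR-31-5p: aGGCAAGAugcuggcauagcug
miR-31-3p: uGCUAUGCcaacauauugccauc
miR-17-5p: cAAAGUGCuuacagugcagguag
miR-20a-5p: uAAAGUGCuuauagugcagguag
miR-18a-5p: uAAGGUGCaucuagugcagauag
miR-19a-3p: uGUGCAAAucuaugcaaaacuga
miR-19b-3p: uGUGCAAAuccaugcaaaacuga
miR-92a-3p: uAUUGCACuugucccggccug

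The Mir31 host belongs to a row of lincRNAs on chromosome 4 beside Cdkn2a, the tumor suppressor locus that YUMM lines are known to lack. Cdkn2a had 0 counts in all 6 tumors. The members of the row did not move together. AL805899.1 rose, and AL805899.2 (log2 fold change -0.13 ± 0.75) did not pass. Wincr1, an RNA induced by WNT signalling, fell from 18.1, 32.8 and 49.7 CPM to 15.8, 10.3 and 18.3 CPM (log2 fold change -1.17 ± 0.31, edgeR, adjusted p = 0.00636). Its groups overlapped by a small margin, since RGS 12 was at the level of vehicle 7, and the call was lost with the offsets for GC content and length. Gm12606, the nearest of them to Cdkn2a, had 14.6, 19.2 and 21.1 CPM with vehicle and 22.8, 25.5 and 29.7 CPM with RGS (log2 fold change 0.51 ± 0.23, adjusted p = 0.10). Mtap, the coding gene between Wincr1 and Gm12606, stood at 647 ± 25.3 CPM in vehicle and 652 ± 15.5 CPM in RGS tumors (log2 fold change 0.01 ± 0.14).

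The immune and stromal members did not pass. Ptgs2os2, known as lincRNA-Cox2 and induced with the inflammatory gene Ptgs2 in macrophages, had 0.200, 3.03 and 2.28 CPM with vehicle and 3.36, 5.72 and 1.83 CPM with RGS (log2 fold change 0.99 ± 0.78). Bvht, an RNA of the heart lineage, had 6.48, 6.38 and 6.92 CPM against 3.36, 7.38 and 5.81 CPM (-0.26 ± 0.40), and turned to 0.24 with the length offset. The groups of both overlapped. Of the 8 genes of this list that were tested, members Mir155hg, Lncpint, Bvht and Ptgs2os2 among them, 0 passed in edgeR's test. The count was also 0 at an unadjusted p under 0.05, and 0 by DESeq2 or voom. For this list and those that follow, 16.3% of all genes tested rose and 16.5% fell in edgeR's test. Of 12 microRNA hosts tested as a list, members and others, edgeR called 0, with 1 higher at an unadjusted p under 0.05 and 1 higher by DESeq2 and by voom. The imprinted lincRNAs H19 and Meg3 were below the minimum and are no members, while Peg13 and Kcnq1ot1, imprinted RNAs of other annotated types, rose with log2 fold changes of 3.23 and 1.80. Of 5 tested partners of imprinted genes, Igf2r alone rose, and of 4 tested X-linked RNAs, Firre, which lies outside the X inactivation centre, alone fell.

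The nearest protein-coding gene was sought among those in the counts, so annotated coding genes absent from them, such as Gm20388, were passed over. Over all members its median distance was 3710 bases, with 27 members overlapping such a gene and 60 more within 5000 bases of one. It was tested for 146 of the members. The tested neighbours were 143 distinct coding genes. Of them, 30 rose and 30 fell, against 18.3% higher and 18.4% lower among all coding genes tested. Beside the 13 members that rose and have a tested neighbour, 6 neighbours rose, 0 fell and 7 did not pass the threshold in edgeR's test (0 lower at an unadjusted p under 0.05, by DESeq2 or by voom). Beside the 23 that fell, 11 neighbours fell, 3 rose (those of Bc1, Gm42047 and AU020206) and 9 did not pass. Over all 146 pairs, which share libraries and are not independent, Spearman's rho of the log2 fold changes was 0.33.

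Pairs that moved the same way lay from 0 to 136972 bases apart. Among them, Gdap10, 2310001H17Rik, AC133498.1, AC129328.1, 4732496C06Rik and Platr26 reached the minimum through 1 group alone. The calls of these members are not independent of the rule, nor are the counts of such pairs. Gdap10 lies within Nampt, the gene of an NAD-producing enzyme, which fell from 306 ± 62.6 to 85.9 ± 8.80 CPM (log2 fold change -1.83). Both are on the same strand, so reads of unspliced Nampt RNA could be counted for Gdap10, which was not tested. C230024C17Rik is 2520 bases from Rgs16, which fell from 771 ± 77.0 to 309.6 ± 17.5 CPM (-1.32). AC133498.1 is 136972 bases from the transcription factor gene Klf6, at 228 ± 14.8 and 90.1 ± 7.81 CPM (-1.34). The kinetochore gene Oip5, 2010 bases from 1700020I14Rik on the opposite strand, fell from 14.3 ± 3.74 to 2.46 ± 1.41 CPM (-2.53). Near the members that rose, Qdpr, an enzyme that regenerates tetrahydrobiopterin, 9619 bases from D5Ertd615e, rose from 154 ± 29.1 to 549 ± 15.1 CPM (1.84), and Nucb2, 6281 bases from 4732496C06Rik on the same strand, from 40.2 ± 3.75 to 121 ± 24.1 CPM (1.59).

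**Figure D3:**
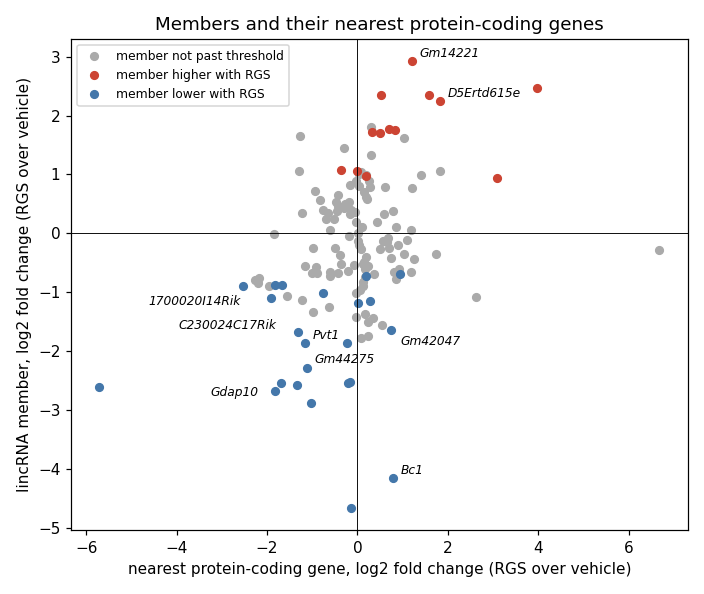
The log2 fold change of each lincRNA (y axis) against that of its nearest protein-coding gene (x axis) for the 146 pairs that were tested, with the lincRNAs that rose in red, those that fell in blue and the others in grey. Most blue points lie at the lower left, where 11 neighbours fell, while Bc1 and Gm42047 lie to the right of 0 beside neighbours that rose.

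The share of all counts taken by the 160 lincRNAs was 0.271%, 0.296% and 0.325% in the vehicle tumors and 0.227%, 0.231% and 0.219% in the RGS tumors. The RGS tumors were all below the vehicle tumors. The means were 0.297% ± 0.0266 and 0.226% ± 0.00603 (SD, n = 3), and the two-sided exact permutation test gave p = 0.1, the smallest it can give for 3 against 3. Gm42047 alone made up most of the difference, at 0.0626% in vehicle and 0.0182% in RGS tumors. Without it, a choice made after its values were seen, the shares were 0.235% ± 0.0279 and 0.208% ± 0.00409 (exact permutation p = 0.2) and the groups overlapped at vehicle 7. Within the lincRNA counts, Malat1 went from 15.0% with vehicle to 23.4% with RGS, 2900097C17Rik from 4.90% to 11.4%, Gm42047 from 21.2% to 8.07% and Pvt1 from 4.71% to 1.55%, while Neat1 held 12.9% and 12.03%. As a share of the counts from nuclear genes, leaving out the mitochondrial genes that rose, the members had 0.305% ± 0.0291 and 0.243% ± 0.00540.

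**Figure D4:**
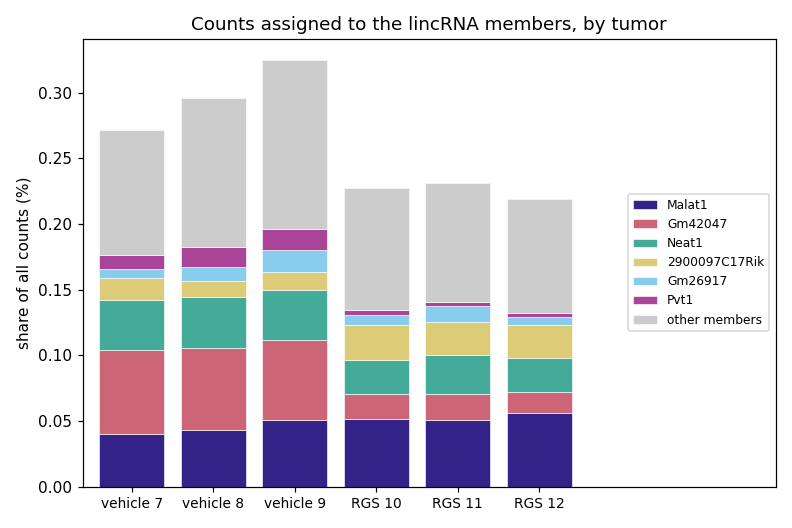
Share of all counts (y axis, %) that fell on the 160 lincRNAs in each tumor, as bars stacked by the 6 lincRNAs with most counts and the rest in grey. The 3 RGS bars are lower than the 3 vehicle bars, with the Gm42047 segment shrinking from about 0.0626% to 0.0182% and that of Malat1 slightly larger.

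The promoters of 84 members are in RefSeq's table for GRCm38.p6 (250 bases before to 50 after the start). The CCAAT box (CCAAT, both strands) was found in 38 of them (45.2%) and in 37.4% of all 32851 promoters, and the GC box (GGGCGG, both strands) in 33 (39.3%) and 35.7%. The TATA box (TATAAA) was in 14.3% against 13.6%, an AP-1 site (TGANTCA) in 13.1% against 7.81% and the E-box that MYC binds (CACGTG) in 10.7% against 7.15%. A member was counted once if any of its RefSeq promoters held the motif, while the share of all promoters counted each promoter singly. The member shares and those of all promoters are therefore not like for like. All are descriptions, and a match does not show that a factor binds. Of the members with the clearest change, Gm32856 and 1810058I24Rik have a RefSeq start within 11 and 56 bases of the start in the gene annotation, and their promoters are shown as examples of a lincRNA that fell and one that rose. Both are on the plus strand, 5′ to 3′, of GRCm38.p6, at chr8:129263380-129263679 for Gm32856, with 2 CCAAT boxes in capitals (one on each strand), and at chr6:35252460-35252759 for 1810058I24Rik, with 4 GC boxes in capitals, counting both strands, 2 of them sharing bases. The first holds 52.0% GC and the second 65.0%.
Gm32856: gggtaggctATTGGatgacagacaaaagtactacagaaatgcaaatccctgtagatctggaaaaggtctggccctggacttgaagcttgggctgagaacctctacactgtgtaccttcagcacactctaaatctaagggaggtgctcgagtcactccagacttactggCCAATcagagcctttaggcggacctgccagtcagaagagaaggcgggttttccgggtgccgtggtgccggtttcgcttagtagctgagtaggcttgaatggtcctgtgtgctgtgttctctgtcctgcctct
1810058I24Rik: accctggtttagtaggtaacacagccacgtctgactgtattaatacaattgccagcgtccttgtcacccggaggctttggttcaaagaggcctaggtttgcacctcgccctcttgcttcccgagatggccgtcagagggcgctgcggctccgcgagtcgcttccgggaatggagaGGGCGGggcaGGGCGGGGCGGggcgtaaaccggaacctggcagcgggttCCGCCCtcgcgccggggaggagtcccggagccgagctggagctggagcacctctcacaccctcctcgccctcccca

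Many lincRNAs are short-lived in the nucleus, where the RNA exosome and its adaptor complexes NEXT and PAXT degrade them, and the genes of this machinery were examined as a list. Of 19 tested, 0 rose and 6 fell in edgeR's test (0 higher at an unadjusted p under 0.05, 0 by DESeq2 and 1 by voom), against 16.3% higher and 16.5% lower among all genes. Zfc3h1, the PAXT scaffold, fell from 163 ± 14.3 to 74.2 ± 2.01 CPM (SD, n = 3), with a log2 fold change of -1.14 (edgeR, adjusted p = 1.59e-05). Rbm7, the RNA-binding subunit of NEXT, fell from 125 ± 41.6 to 43.0 ± 5.46 CPM (log2 fold change -1.54), and Mpp6, an exosome cofactor, from 59.1 ± 4.02 to 23.7 ± 6.21 CPM (-1.32). The others that fell were Dis3, C1d and Exosc8. The median log2 fold change of the 19 genes was -0.25, and a link to the lincRNA levels was not tested.

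At the minimum of the member rule, Gm45495, Platr26 and 2700038G22Rik stood just inside with median counts of 30, 31 and 31.5, and Gm37855, Gm47469 and D130017N08Rik just outside with 29.5, 29 and 28.5. The counts of these genes varied widely, from 25 to 65 in vehicle and 4 to 33 in RGS tumors for Gm47469. Of the 38 members past the threshold, 17 passed in all 19 alternative fits and 0 changed sign in any, while 24 of the other 122 passed in at least 1 and 47 of the 160 changed sign in at least 1.

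**Figure D5:**
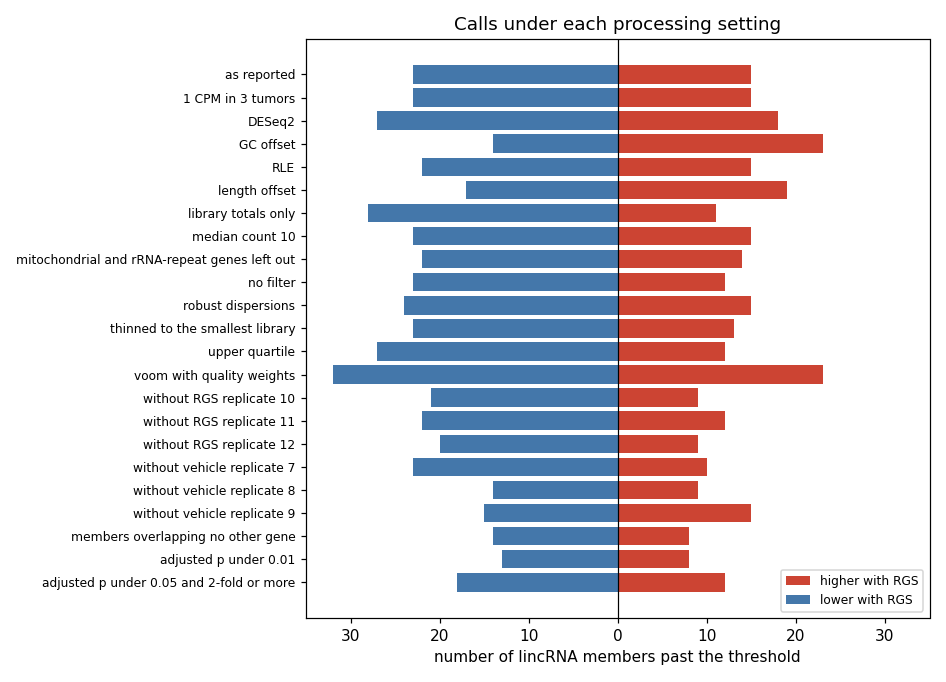
Number of lincRNAs past the threshold (x axis) that were higher (red, to the right) or lower (blue, to the left) with RGS, for the values as reported at the top and for each alternative below. The lower calls outnumber the higher ones at the top (23 and 15), and the order turns with the offsets for GC content (14 and 23) and for length (17 and 19).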

How the data were processed

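Paired-end reads of 150 bases were aligned to mm10 by the authors, who deposited 1 table of raw read counts per gene, without normalization, with 1 column per tumor. The submitters' processing notes name cutadapt 1.18, FastQC 0.11.7, STAR 2.7.1a and featureCounts 1.6.4. The strand setting, the handling of reads matching more than one gene and the annotation release are not given in the sources used here. Gene positions were checked against GENCODE M21, which holds all 160 members by identifier, 154 of them in the same version with the same span. The others differ in version, and exon lengths are those of the table.

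Counts were fitted in R 4.3.3 with edgeR 4.0.16 (TMM factors, quasi-likelihood F test, Benjamini-Hochberg adjustment over 15355 genes, those whose median count reached 5 in 1 group or both). Standard errors were taken as the absolute log2 fold change over the root of F. The procedure was tested on simulated data. Alternatives were DESeq2 1.42.0, voom with quality weights (limma 3.58.1), other scalings, filters and thresholds, offsets for GC content and length, thinning, genes left out and each tumor left out. The floors cover counting error only, while the standard errors and SDs include the spread between the tumors of a group.

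Members named were those of written role lists, the 8 largest increases and 8 largest decreases past the threshold whose groups do not overlap, the 6 highest by RPKM, those at the minimum of the rule, and nearest coding genes. Other members, such as Gm44275, Gm28875, Wincr1, Gm12606, 1700020I14Rik, C230024C17Rik, 1810058I24Rik, AU020206 and AL805899.1 with their neighbours, were named with their values in view. The members and lists were chosen with earlier results of these data known. A result on some genes, and one on a sequence, are not reported here.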

Additional observations from a re-analysis of the deposited data

How the results depend on the processing

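The number of lincRNAs higher and lower with RGS was 15 and 23 as reported. It was 23 and 14 with an offset for GC content, 23 and 32 with voom, 8 and 14 among members overlapping no other gene, and 8 and 13 at an adjusted p under 0.01. The last 2 pairs count fewer genes by construction (78 members, and a stricter threshold), and the cause of the other changes was not tested. DESeq2 called 18 and 27. Leaving out each tumor in turn gave 9 to 15 higher and 14 to 23 lower, a median log2 fold change between -0.32 and -0.066 and a difference in share of counts between -0.0844 and -0.0578 percentage points. The median log2 fold change of the members, -0.25 as reported, reversed to 0.010 with the GC offset and moved to -0.0044 with the length offset, -0.40 with library totals only and -0.42 with voom. Without Gm42047, an alternative chosen after seeing the data, the difference in share was -0.0271. Among the members whose fold change is given, those that reversed were Lncpint and Lncenc1 without RGS 12 (ranges with 1 tumor left out, -0.40 to 0.67 and -0.042 to 0.77), Gm26917 without vehicle 9 (-0.63 to 0.15), Mir17hg with the GC offset (0.053), Bvht with the length offset (0.24) and AL805899.2 with both offsets and with RGS 10, RGS 11 or vehicle 8 left out (-1.18 to 0.30 over its alternatives). Depth limits the members under 100 counts. The vehicle libraries were all the deeper ones, and with all libraries thinned to the smallest, 13 were higher and 23 lower with a median of -0.26. No paired analysis was possible because the vehicle tumors are numbered 7 to 9 and the RGS tumors 10 to 12, with no number in common.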
